A study of Mus musculus with 9 samples.

Results

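Antiviral interferon-stimulated genes are the genes that a cell switches on after an interferon receptor has been engaged, and whose products sense, mark or destroy foreign nucleic acid and protein. The list described here has 44 genes, and all but Oas1g and Ifi44 are among the 18195 genes that the arrays represent. They were chosen by name, with earlier results of these data known, so their counts beside those of all genes are descriptive. The list holds 36 effectors that are best known as targets of type I interferon and 8 GTPases of the GBP and IRG families. Each gene was read from the brightest probe set whose platform symbol names it, alone or with other genes. Total RNA came from CD11b+ splenocytes, selected magnetically from the adherent spleen cells of C57BL/6 mice, and was hybridised to Affymetrix MOE430 arrays. The HighThreat group comprised 6 animals exposed to repeated social threat, with 1 array per animal. The LowThreat group comprised 6 animals kept under non-threatening control conditions, whose RNA was pooled by 2 into 3 arrays. The sources give no age, sex or duration of exposure, and no knockout, transgene or drug is named for either group. Each control array averages 2 animals, so the spread between the pools is not that between animals.

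Type I interferons bind the receptor IFNAR, whose kinases JAK1 and TYK2 activate STAT2. It joins IRF9 in a complex that binds the interferon-stimulated response element in the promoters of effector genes. Interferon gamma binds another receptor and acts mainly through the gamma-activated site, and it is the main inducer of the IRG and GBP GTPases, which in mice attack the vacuoles of intracellular parasites and bacteria. Splenic monocytes and macrophages respond to both kinds of interferon.

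Most effector genes of type I interferon rose in threat animals. Of the 5 IRG GTPases 4 were called lower, but only Tgtp1 kept that call in every alternative processing that gave a value. Of the 36 effectors 33 were tested, and 26 of them rose while 7 did not pass the test. The limma fit called no effector lower, and at an unadjusted p under 0.05 it found 27 higher and 1 lower. The calls refer to a Benjamini-Hochberg adjusted p under 0.05 over all 13080 genes tested, of which 45.8% were called, 23.9% higher and 22.0% lower. Of the 8 GTPases, 1 rose, 4 fell and 3 did not pass. The median difference, HighThreat minus LowThreat, was 0.58 on the log2 scale over the 33 effectors and -0.12 over the 8 GTPases, against 0.03 over all genes tested. The largest rises were those of Ifit1, by 1.36 (SE 0.076), and of Usp18, by 1.15 (SE 0.064), and the largest fall was that of Tgtp1, by 0.85 (SE 0.069). The difference between the effectors and the GTPases was not tested as such. Arrays correlated at 0.996 to 0.998 within the groups and at 0.972 to 0.977 between them, over all genes tested. Most markers of granulocytes were higher in the same threat arrays. Most of those of B, natural killer and conventional dendritic cells were lower. The values are given at the end, and the part of these markers in the results was not tested. In RNA from many cells, fewer cells of a type and less RNA per cell cannot be told apart.

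**Figure D1:**
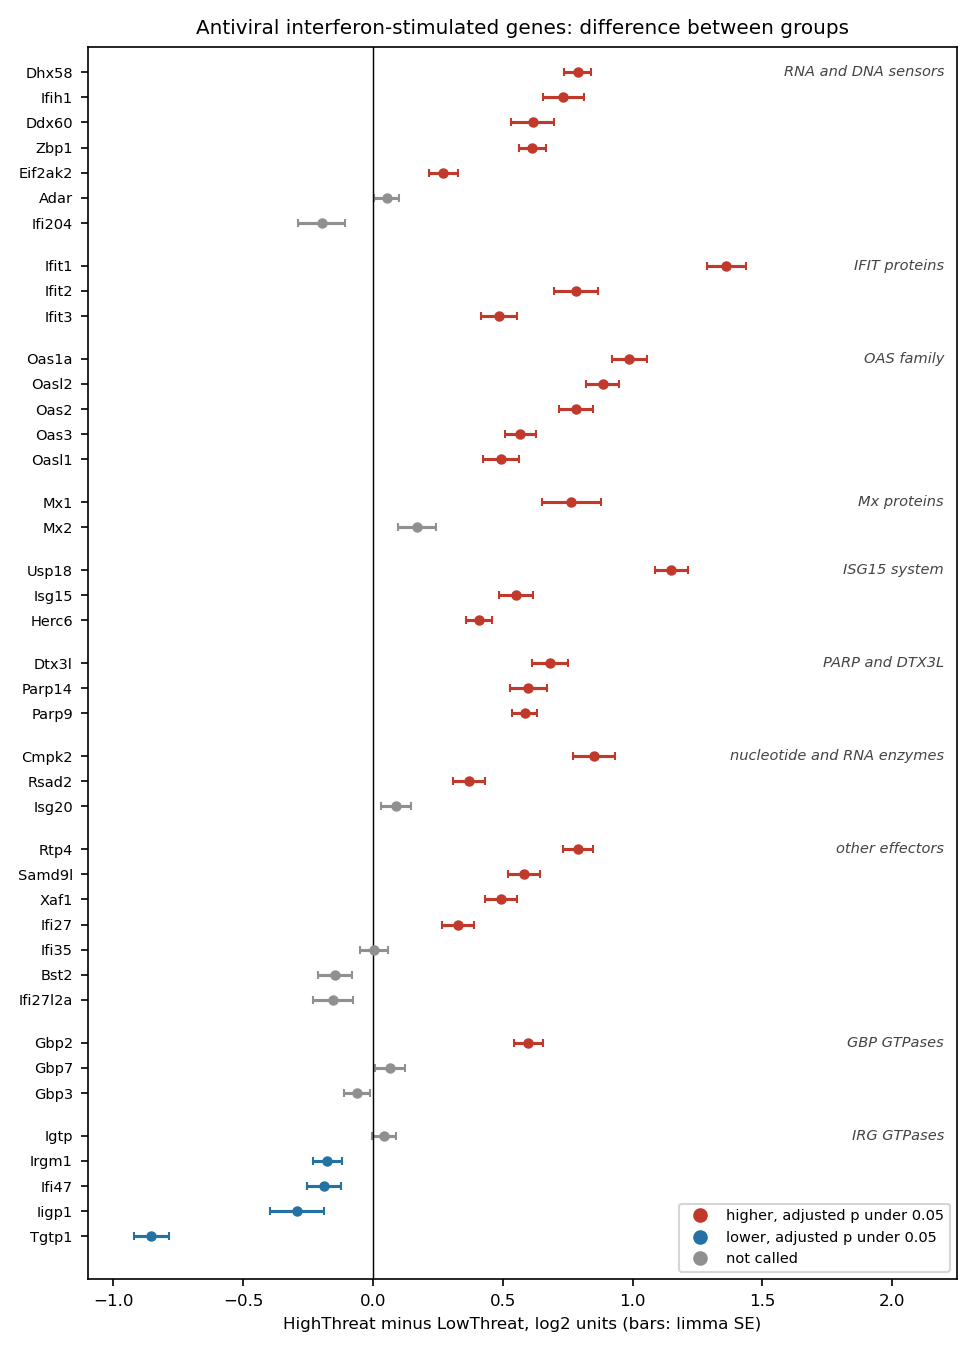
Difference between HighThreat and LowThreat arrays for the 41 tested genes, grouped by role, in log2 units, with limma's standard error as bars. Red points were called higher, blue points lower and grey points not called; 26 of 33 effectors were called higher, and of the 8 GTPases at the bottom only Gbp2 was called higher, while 4 of the 5 IRG GTPases were called lower.

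The groups were also apart value by value. In 26 effectors every one of the 6 threat values lay above all 3 control values, and in no effector did all lie below. In Gbp2 the threat values lay above, and in Tgtp1 and Irgm1 they lay below all control values. Over all genes tested the groups did not overlap in 41.8%: 21.5% had threat values above and 20.3% had threat values below those of every control pool. A rise that was called and reached 1.5-fold, or 0.585 on the log2 scale, was found in 15 effectors and in Gbp2, where 5.31% of all genes reached it. A called fall of that size was found in Tgtp1 alone among the members, where 5.91% of all genes reached it.

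Promoters are shown so that the motifs of both kinds of interferon can be read in them. The choice was limited to genes with an entry in the promoter table, which leaves out Usp18, Dhx58 and Rtp4, and took in each class the 3 called genes with the smallest p among those that hold a motif, and over both classes the 2 with the smallest p that hold none. Sequences are the 250 bases before the annotated transcription start, from RefSeq on mouse build GRCm38.p6, 5′ to 3′ on the strand of the gene, and capitals mark the core of the response element (GAAANNGAAA, or TTTCNNTTTC on the other strand) and the gamma-activated site (TTCNNNGAA, which reads the same on both strands). The first 3 are effectors that rose and carry a motif.
Ifit1 promoter, chr19:34640639-34640888, plus strand: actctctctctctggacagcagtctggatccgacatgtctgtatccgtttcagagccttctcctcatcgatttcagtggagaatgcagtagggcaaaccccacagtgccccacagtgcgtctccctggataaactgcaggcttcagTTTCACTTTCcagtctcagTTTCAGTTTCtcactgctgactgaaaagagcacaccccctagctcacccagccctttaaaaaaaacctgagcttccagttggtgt
Oas1a promoter, chr5:120907526-120907775, minus strand: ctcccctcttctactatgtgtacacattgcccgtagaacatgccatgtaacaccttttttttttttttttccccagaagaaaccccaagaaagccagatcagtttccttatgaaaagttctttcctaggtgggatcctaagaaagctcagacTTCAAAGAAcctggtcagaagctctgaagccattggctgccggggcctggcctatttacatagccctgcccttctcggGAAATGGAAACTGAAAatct
Oas3 promoter, chr5:120777660-120777909, minus strand: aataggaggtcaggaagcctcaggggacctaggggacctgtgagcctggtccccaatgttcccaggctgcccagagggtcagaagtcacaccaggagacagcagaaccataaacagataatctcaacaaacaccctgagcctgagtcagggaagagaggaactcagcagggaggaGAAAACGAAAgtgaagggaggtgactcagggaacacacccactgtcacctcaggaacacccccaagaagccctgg
The next 3 are GTPases that were called, of which Gbp2 rose and the others fell.
Tgtp1 promoter, chr11:48992247-48992496, minus strand: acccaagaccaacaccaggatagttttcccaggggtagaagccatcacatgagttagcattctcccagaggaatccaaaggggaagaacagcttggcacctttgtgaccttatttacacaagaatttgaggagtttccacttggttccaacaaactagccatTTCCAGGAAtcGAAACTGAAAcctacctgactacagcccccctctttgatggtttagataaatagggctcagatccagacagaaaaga
Gbp2 promoter, chr3:142620413-142620662, plus strand: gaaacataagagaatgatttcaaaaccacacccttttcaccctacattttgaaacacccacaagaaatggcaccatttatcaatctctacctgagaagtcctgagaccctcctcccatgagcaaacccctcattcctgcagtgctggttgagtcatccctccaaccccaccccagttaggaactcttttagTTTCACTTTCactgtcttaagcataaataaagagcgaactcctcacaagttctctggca
Irgm1 promoter, chr11:48871421-48871670, minus strand: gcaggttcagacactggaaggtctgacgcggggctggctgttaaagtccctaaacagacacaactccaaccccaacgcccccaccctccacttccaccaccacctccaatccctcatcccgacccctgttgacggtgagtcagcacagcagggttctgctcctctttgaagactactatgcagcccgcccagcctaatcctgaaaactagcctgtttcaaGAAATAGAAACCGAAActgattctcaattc
Oasl2 and Cmpk2 are effectors that rose without either motif in the window.
Oasl2 promoter, chr5:114896684-114896933, plus strand: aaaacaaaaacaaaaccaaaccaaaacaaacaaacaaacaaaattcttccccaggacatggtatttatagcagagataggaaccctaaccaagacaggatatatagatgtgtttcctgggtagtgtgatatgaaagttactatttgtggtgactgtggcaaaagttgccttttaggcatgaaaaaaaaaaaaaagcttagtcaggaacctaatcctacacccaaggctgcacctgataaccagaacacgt
Cmpk2 promoter, chr12:26468965-26469214, plus strand: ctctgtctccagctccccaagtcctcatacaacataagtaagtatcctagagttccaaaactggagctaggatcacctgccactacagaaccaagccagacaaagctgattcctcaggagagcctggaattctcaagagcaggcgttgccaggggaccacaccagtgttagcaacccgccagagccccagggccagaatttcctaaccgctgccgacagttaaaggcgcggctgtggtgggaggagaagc
Isg15, with 3 overlapping matches, and Bst2, which carries both motifs but was not called, were added after their motifs had been seen.
Isg15 promoter, chr4:156200819-156201068, minus strand: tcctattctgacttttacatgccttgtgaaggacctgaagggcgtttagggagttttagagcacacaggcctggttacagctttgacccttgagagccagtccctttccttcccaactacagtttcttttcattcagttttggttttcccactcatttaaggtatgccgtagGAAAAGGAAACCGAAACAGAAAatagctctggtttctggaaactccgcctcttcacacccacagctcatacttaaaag
Bst2 promoter, chr8:71537473-71537722, minus strand: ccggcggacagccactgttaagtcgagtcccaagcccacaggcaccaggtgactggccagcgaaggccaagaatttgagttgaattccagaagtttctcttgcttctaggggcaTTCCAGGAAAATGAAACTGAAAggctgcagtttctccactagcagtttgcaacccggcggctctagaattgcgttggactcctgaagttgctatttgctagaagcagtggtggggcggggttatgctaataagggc

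Promoter windows of 300 bases, 250 before and 50 after the start, were at hand for 31 of the 44 genes. The response element core was found in 11 of 24 effectors (45.8%) and in 6 of 7 GTPases (85.7%), against 3.99% of 27025 genes in the promoter table. The gamma-activated site was found in 7 of the 24 effectors (29.2%) and in 3 of the 7 GTPases (42.9%), against 9.55% of all genes. Motifs were found in some genes that rose, some that fell and some that were not called. Of 17 effectors that rose, 9 had the response element core and 3 the gamma-activated site, while 7 had neither. Of the 3 GTPases with a window that fell, Irgm1 and Tgtp1 had the response element core, as did Gbp2, which rose, and Gbp3, Gbp7 and Igtp, which were not called. In Bst2 a response element core overlaps the gamma-activated site. The matches describe letters in these windows and do not show that a factor binds there.

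**Figure D2:**
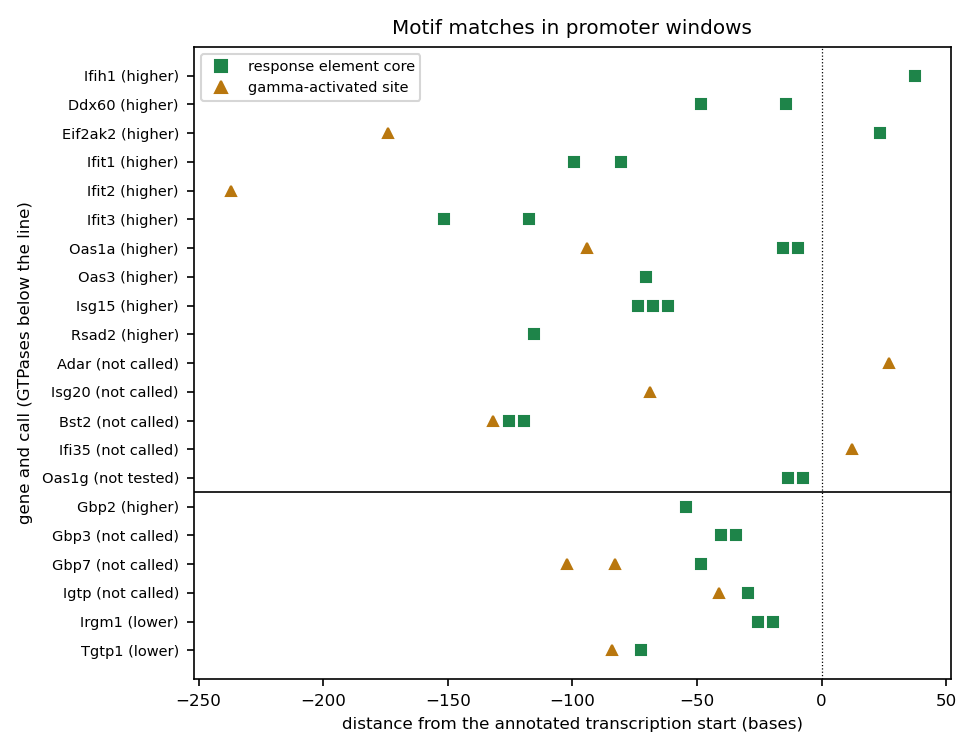
Positions of motif matches relative to the annotated transcription start, in bases, for the genes of the list that hold one. Green squares are response element cores and orange triangles gamma-activated sites. The call of each gene stands beside its name, and some genes that rose, some that fell and some that were not called hold matches.

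Among the sensors of foreign nucleic acid, 5 of 7 rose. Dhx58 encodes LGP2, which tunes the RNA sensors of the RIG-I family. Its values ran from 5.55 over a median of 5.67 to 5.75 in threat animals, against 4.86, 4.87 and 4.87 in the control pools. The groups lay far apart, and the difference was 0.79 (SE 0.052, adjusted p = 9.7e-08). Ifih1, which encodes the double-stranded RNA sensor MDA5, was between 8.88 and 9.27 in threat animals and between 8.23 and 8.48 in control pools, a difference of 0.73 (SE 0.079). Zbp1, a sensor of Z-form nucleic acid that can start cell death, rose by 0.61 (SE 0.053), and the helicase gene Ddx60 by 0.62 (SE 0.083). Eif2ak2, which encodes the translation-blocking kinase PKR, rose least of the 5 on the brightest probe sets, by 0.27 (SE 0.056). Its other probe sets gave 0.81 (SE 0.20) and 0.71 (SE 0.10), so this rank depends on the probe set.

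Adar and Ifi204 did not pass. Adar encodes an RNA-editing enzyme that keeps a cell's own RNA from being sensed. It averaged 7.18 ± 0.050 in threat animals and 7.13 ± 0.060 in control pools (SD, n = 6 and 3), and all 3 of its probe sets were uncalled. Ifi204, a DNA-binding protein of the PYHIN family, averaged 9.50 ± 0.148 in threat animals and 9.70 ± 0.165 in control pools (SD) on a probe set that also names Mndal, Ifi205 and Ifi211, so the value cannot be given to Ifi204 alone. The probe set that names Ifi204 alone differed by -0.07 and was not called either.

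All 3 IFIT genes rose. IFIT proteins bind foreign RNA and hold back its translation. Ifit1 had a lowest value of 8.01, a median of 8.22 and a highest value of 8.37 in threat animals, against 6.84, 6.91 and 6.73 in the control pools. Every threat animal was higher than every pool by more than 1 unit, and the difference of 1.36 corresponds to 2.57-fold (adjusted p = 2.4e-08). Ifit2 rose by 0.78 (SE 0.084). Ifit3 rose by 0.49 (SE 0.070), with the reservation that mice carry a near-identical copy of it, so its value may be shared.

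The 5 OAS genes that were tested rose together. OAS enzymes answer double-stranded RNA by making oligoadenylates that activate the nuclease RNase L. Oas1a was 8.49 at its lowest, 8.58 at the median and 8.65 at its highest in threat animals, against 7.71, 7.68 and 7.41 in control pools. The groups did not overlap, and the difference was 0.99 (SE 0.068, adjusted p = 1.4e-07). Oas1a belongs to a cluster of near-identical genes and its assignment is uncertain; no probe set named Oas1g, which was not analysed here. Oasl1, which in mice limits the translation of IRF7, ran from 9.62 over 9.83 to 9.89 in threat animals, against 9.20, 9.28 and 9.45 in control pools, and rose by 0.49 (SE 0.071). Oasl2 rose by 0.89 (SE 0.064), Oas2 by 0.78 (SE 0.066) and Oas3 by 0.57 (SE 0.060).

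**Figure D3:**
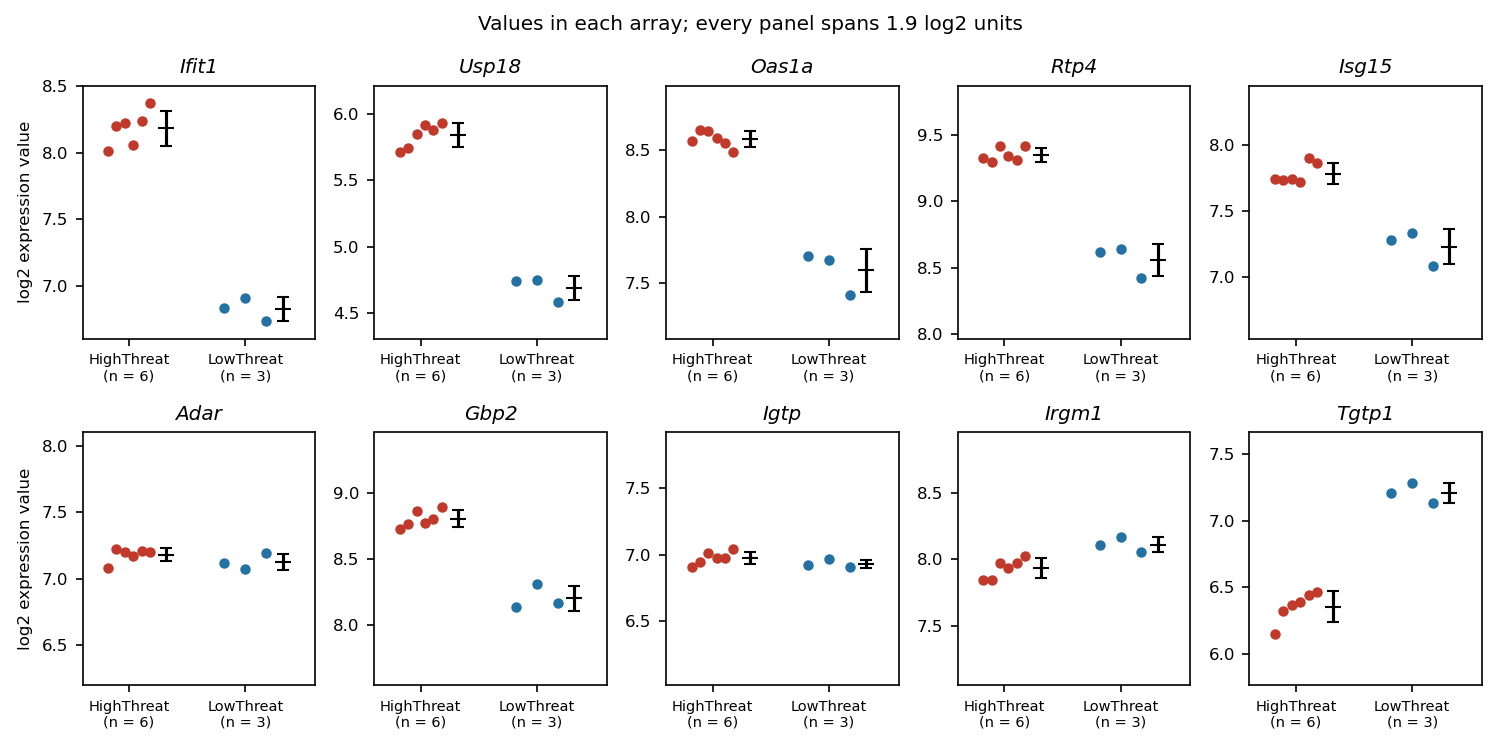
Log2 expression values of 10 genes in every array, with HighThreat animals in red, LowThreat pools in blue and the mean with its SD beside them; every panel spans the same number of log2 units. Ifit1, Usp18, Oas1a, Rtp4, Isg15 and Gbp2 were higher in all threat animals, Tgtp1 and Irgm1 were lower in all of them, and the groups overlap in Adar and Igtp.

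Of the Mx genes Mx1 rose. Mx proteins are dynamin-like GTPases that trap viral particles. The RefSeq table of the C57BL/6J assembly lists both Mx1 and Mx2 as transcribed pseudogenes, so the values report transcripts and not a working protein. Mx1 ran from 6.25 over 6.39 to 6.59 in threat animals, against 5.45, 5.49 and 5.96 in the control pools. Pool 5-6 stood above the other pools, the groups still did not overlap, and the difference was 0.76 (SE 0.11, adjusted p = 1.3e-04). Mx2 averaged 4.58 ± 0.13 in threat animals and 4.41 ± 0.055 in control pools (SD, n = 6 and 3; adjusted p = 0.078 in the limma fit). It was called higher in 4 of 22 alternatives, which were quantile normalization (adjusted p = 0.0472, limma), pools at weight 2 (0.0443), threat animals averaged in number pairs (0.041) and leaving out threat animal 1 (0.0077).

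The 3 genes of the ISG15 system in the list all rose. ISG15 is a ubiquitin-like protein that is attached to other proteins during the interferon response, Herc6 is its main ligase in mice, and Usp18 removes it and also dampens the type I interferon receptor. Usp18 was between 5.71 and 5.93 in threat animals, with a median of 5.87, against 4.74, 4.75 and 4.58 in control pools. No threat value came near a control value, and the difference of 1.15 corresponds to 2.22-fold (adjusted p = 2.2e-08). Isg15 was between 7.72 and 7.90 in threat animals, with a median of 7.74, against 7.28, 7.33 and 7.08 in control pools, and rose by 0.55 (SE 0.065). Its probe set also names the predicted gene Gm9706. Herc6 rose by 0.41 (SE 0.050) on its brightest probe set and by 0.90 (SE 0.074) and 0.64 (SE 0.081) on the other 2 that were bright enough to test.

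Parp9, Parp14 and Dtx3l rose by similar amounts. Parp9 and the ubiquitin ligase Dtx3l form a complex, and Parp14 is an ADP-ribosyltransferase of macrophages. Parp9 was between 7.33 and 7.47 in threat animals, with a median of 7.36, against 6.80, 6.80 and 6.76 in control pools, a difference of 0.58 (SE 0.048, adjusted p = 6.7e-07). Parp14 was between 8.31 and 8.67 in threat animals, with a median of 8.47, against 7.85, 7.97 and 7.84 in control pools, a difference of 0.60 (SE 0.070). Dtx3l rose by 0.68 (SE 0.070). The threat animals lay above the control pools in all 3 genes.

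Of the enzymes of nucleotides and RNA, 2 of 3 rose. Rsad2 encodes viperin, which makes a chain-terminating nucleotide, and Cmpk2 is a mitochondrial nucleotide kinase. Cmpk2 was between 5.45 and 5.79 in threat animals, with a median of 5.67, against 4.62, 4.86 and 4.89 in control pools, a difference of 0.85 (SE 0.081). Rsad2 was between 9.17 and 9.45 in threat animals, with a median of 9.32, against 8.998, 8.919 and 8.915 in control pools, a difference of 0.37 (SE 0.061). The exonuclease gene Isg20 averaged 7.56 ± 0.075 in threat animals and 7.47 ± 0.081 in control pools (SD, n = 6 and 3), and its groups overlapped.

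The remaining effectors split. Rtp4, an interferon-induced regulator of antiviral signalling, was between 9.30 and 9.42 in threat animals, with a median of 9.33, against 8.62, 8.64 and 8.42 in control pools, a difference of 0.79 (SE 0.058, adjusted p = 2.6e-07). Samd9l, a restriction factor, rose by 0.58 (SE 0.061), the apoptosis-linked gene Xaf1 by 0.49 (SE 0.060) and the mitochondrial protein gene Ifi27 by 0.33 (SE 0.062). Ifi27l2a was between 9.42 and 9.69 in threat animals, with a median of 9.56, against 9.80, 9.83 and 9.53 in control pools. Its groups overlapped through pool 5-6, and it was called lower without that pool (difference -0.25, adjusted p = 0.016, limma) but not with it (-0.16, adjusted p = 0.125, limma).

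Bst2 and Ifi35 did not pass either. Bst2 encodes tetherin, which holds budding virus at the cell surface, and it is also a surface marker of plasmacytoid dendritic cells. It averaged 6.45 ± 0.093 in threat animals and 6.59 ± 0.11 in control pools (SD, n = 6 and 3), and without pool 5-6 it was called lower as well (-0.21, adjusted p = 0.029, limma). Ifi35 averaged 8.55 ± 0.071 in threat animals and 8.55 ± 0.061 in control pools (SD), and all 3 of its probe sets were uncalled. Ifi44l stayed below the filter on dim probe sets with 1.496 ± 0.11 in threat animals and 1.43 ± 0.062 in control pools (SD), and was not tested. No probe set named Ifi44.

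Of the GBP genes Gbp2 rose. Guanylate-binding proteins coat bacteria and vacuoles and help to start inflammasome signalling. Gbp2 was between 8.73 and 8.89 in threat animals, with a median of 8.79, against 8.14, 8.31 and 8.17 in control pools, a difference of 0.60 (SE 0.056, adjusted p = 2.4e-06). The groups did not overlap, and its second probe set gave 0.54 (SE 0.058). Gbp3 averaged 7.38 ± 0.064 in threat animals and 7.44 ± 0.038 in control pools (SD, n = 6 and 3). Gbp7 averaged 6.47 ± 0.083 in threat animals and 6.40 ± 0.075 in control pools (SD), with no call on its brightest probe set, while the second probe set was called higher by 0.25 (SE 0.060).

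The IRG genes went the other way, with 4 of 5 called lower. Tgtp1, whose product loads onto parasite vacuoles, was between 6.14 and 6.46 in threat animals, with a median of 6.38, against 7.21, 7.28 and 7.13 in control pools. Every threat animal was below every pool, and the difference of -0.85 (SE 0.069, adjusted p = 6.6e-07) corresponds to 1.81-fold. The probe set names its near-identical copy Tgtp2 as well. Ifi47 was between 7.96 and 8.23 in threat animals, with a median of 8.08, against 8.33, 8.35 and 8.14 in control pools, so the groups overlapped through pool 5-6. Its difference was -0.19 (SE 0.066, adjusted p = 0.035). Irgm1, a regulator that keeps the other IRG proteins off a cell's own membranes, fell by 0.18 (SE 0.055, adjusted p = 0.020), and Iigp1 fell by 0.29 (SE 0.10, adjusted p = 0.034). The Iigp1 probe set was dim, with means of 3.23 in threat animals and 3.52 in control pools, and its groups overlapped. Igtp, also a regulatory member, averaged 6.97 ± 0.049 in threat animals and 6.93 ± 0.032 in control pools (SD, n = 6 and 3). The falls other than that of Tgtp1 were small and rested on few arrays. The number of GTPases that fell was 1 without pool 1-2, 2 without pool 3-4 and 2 without threat animal 2.

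**Figure D4:**
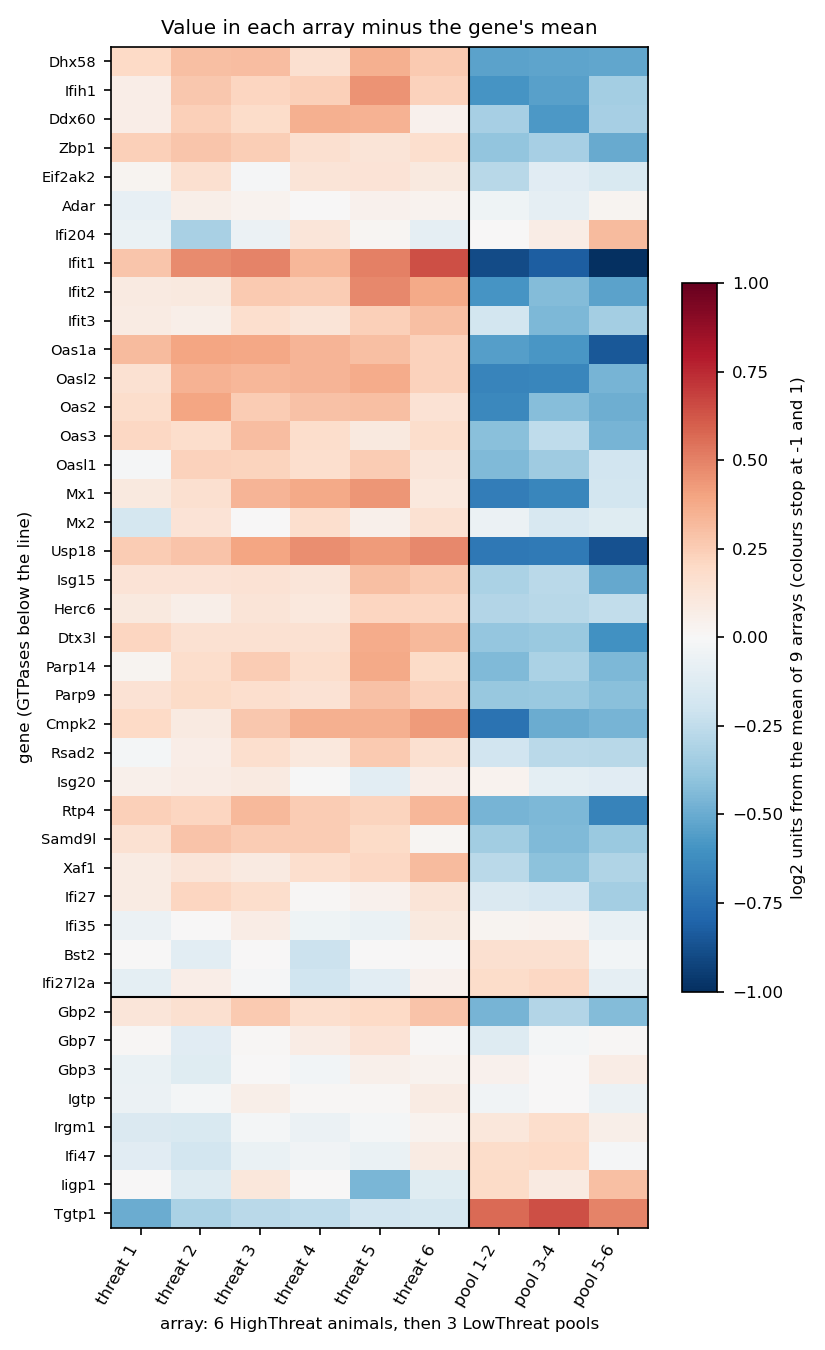
Value of each tested gene in each array minus that gene's mean over the 9 arrays, in log2 units, with HighThreat animals left of the vertical line and LowThreat pools right of it. Most effectors are above their mean in all 6 threat animals and below it in all 3 pools, Gbp2 follows them, and Tgtp1 shows the opposite order.

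Where several probe sets measured a gene, their calls mostly matched. Of 17 genes of the list with more than 1 probe set above the filter, 12 had every probe set called higher, 3 had none called and 2, Gbp7 and Xaf1, had both called and uncalled probe sets. In no gene did probe sets move in opposite called directions. The size was less settled than the direction. Eif2ak2 differed by 0.27 on its brightest probe set but by 0.81 (SE 0.20) and 0.71 (SE 0.10) on the others, and Xaf1 by 0.49 on the brightest and 0.11 on the other.

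**Figure D5:**
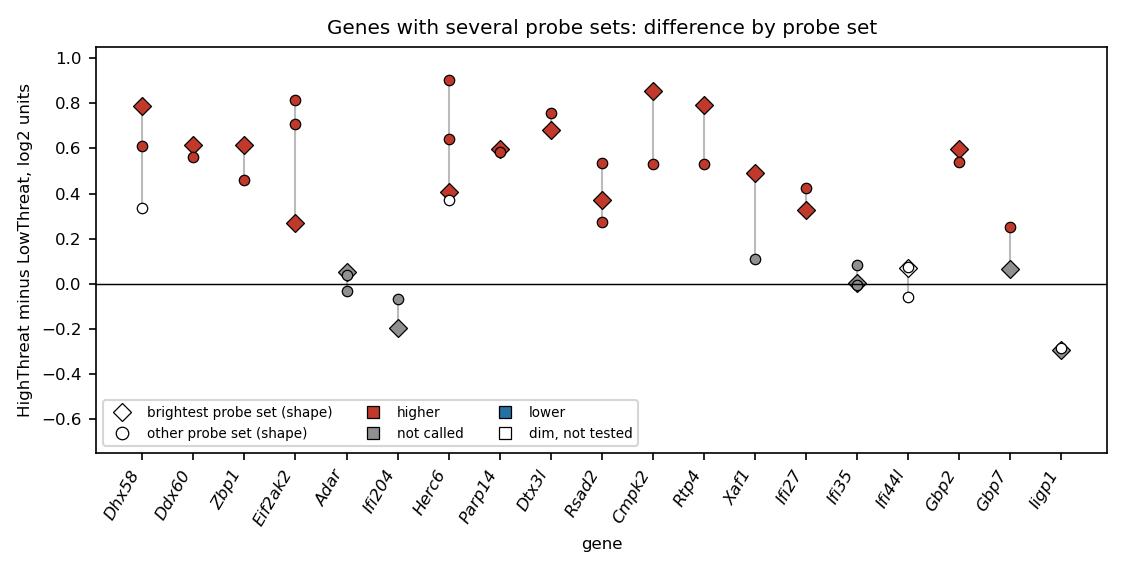
Difference between HighThreat and LowThreat arrays, in log2 units, for every probe set of the genes with more than 1; diamonds are the brightest probe set and circles the others, coloured by the call in a fit of all probe sets on their own. Directions within a gene agree among called probe sets, while sizes differ by up to about 0.5 in Eif2ak2, from 0.27 to 0.81; in this fit Iigp1 was not called (adjusted p = 0.0509, limma).

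The threat animals resembled each other in these genes. The SD between the 6 animals had a median of 0.09 over the effectors and 0.08 over the GTPases, against 0.09 over all genes tested. The mean of the 33 effectors ran from 7.14 in threat animal 1 to 7.27 in threat animal 5, against 6.69, 6.70 and 6.68 in pools 1-2, 3-4 and 5-6. Threat animal 1 had the lowest threat value in 13 of the 33 effectors and the highest in none, and threat animal 5 had the highest in 12. The mean of the 5 IRG genes ran from 6.45 to 6.59 in threat animals, against 6.82, 6.84 and 6.77 in the pools.

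The other genes of the interferon pathway, from lists of ligands, receptors, factors, sensors and inhibitors, moved in both directions. Of 9 receptor and JAK-STAT genes tested, 5 rose and 2 fell. The subunits of the type I receptor, Ifnar1 and Ifnar2, rose by 0.27 (SE 0.049) and 0.39 (SE 0.051), although Ifnar1 differed by 0.03 (adjusted p = 0.814, limma) when all its probe sets were averaged. The ligand-binding chain of the interferon gamma receptor, Ifngr1, fell by 0.44 (SE 0.052, adjusted p = 1.6e-05). It averaged 7.81 ± 0.061 in threat animals and 8.25 ± 0.062 in control pools (SD, n = 6 and 3). The other chain, Ifngr2, was called higher by 0.25 (SE 0.094, adjusted p = 0.044, limma), a call that was lost in 12 of 22 alternative settings. The kinase genes of the type I receptor went opposite ways. Tyk2, the gene of that list with the smallest p, rose by 0.53 (SE 0.062), and by 0.23 when its probe sets were averaged. Jak1 fell by 0.43 (SE 0.054), but differed by -0.14 (adjusted p = 0.171, limma) when its probe sets were averaged. Irf9, the DNA-binding part of the type I interferon complex, rose by 0.27 (SE 0.053), while Stat2 averaged 4.75 ± 0.25 in threat animals and 4.81 ± 0.21 in control pools (SD).

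Among 6 interferon regulatory factors 2 rose and 2 fell. Irf7, which amplifies type I interferon production and is itself an interferon target, rose by 0.15 (SE 0.055, adjusted p = 0.045), a call that was lost in 12 of 22 alternative settings. Irf1, a target of interferon gamma, averaged 9.74 ± 0.064 in threat animals and 9.83 ± 0.026 in control pools (SD, n = 6 and 3; adjusted p = 0.204 in the limma fit). The largest fall of that list was Irf8 at -1.70 (SE 0.067), a factor of monocyte and dendritic cell development. Of 11 genes of nucleic acid sensing upstream of interferon, 4 rose and 1 fell, a share near the 45.8% called over all genes tested. The largest rise was that of Ikbke, a kinase that activates IRF3. It averaged 8.82 ± 0.123 in threat animals and 6.895 ± 0.241 in control pools (SD, n = 6 and 3), a difference of 1.93 (SE 0.098). Of 6 feedback inhibitors 3 rose and 1 fell, and the cytokine signalling inhibitor Socs3 rose by 0.90 (SE 0.052).

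Of 10 genes of the interferons themselves, Ifna12, Ifnk and Ifne had no probe set that names them alone. Of the others, 2 were above the filter on dim probe sets. Ifnb1 averaged 4.04 ± 0.17 in threat animals and 3.97 ± 0.13 in control pools (SD, n = 6 and 3), and Ifna1 averaged 3.67 ± 0.11 in threat animals and 3.55 ± 0.19 in control pools (SD). Neither was called. Ifng lay below the filter with 1.78 ± 0.11 in threat animals and 2.64 ± 0.265 in control pools (SD), and was not tested with the filter in place.

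Markers of several cell types moved in the same arrays. The sort antigen Itgam averaged 8.50 ± 0.070 in threat animals and 7.93 ± 0.025 in control pools (SD, n = 6 and 3), and of 10 monocyte and macrophage markers 7 rose and 1 fell. Granulocyte markers rose in 10 of 11 genes, with a mean level between 10.09 and 10.56 in threat arrays and between 8.66 and 8.86 in control arrays.

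Most markers of lymphocytes and conventional dendritic cells were lower. Natural killer cell markers, from cells that make interferon gamma, fell in 6 of 7 genes, with a mean level between 3.64 and 3.83 in threat arrays and between 5.23 and 5.43 in control arrays. B cell markers fell in 6 of 7 genes, with a mean level between 4.78 and 5.19 in threat arrays and between 6.87 and 7.04 in control arrays. T cell markers fell in 3 of 5 genes, with a mean level between 3.99 and 4.16 in threat arrays and between 4.44 and 4.53 in control arrays. In none of these lists of lymphocyte markers did the level of a threat array reach that of a control array. Conventional dendritic cell markers fell in 7 of 7 genes, with a mean level between 5.195 and 5.286 in threat arrays and between 6.22 and 6.30 in control arrays. Red pulp macrophage markers fell in 6 of 8 genes and rose in 1, with a mean level between 6.29 and 6.39 in threat arrays and between 7.09 and 7.11 in control arrays. Of 9 markers of plasmacytoid dendritic cells, the main producers of type I interferon, 4 fell and 5 were not called. The falls were those of Spib (-2.29), Ly6d (-1.96), Tcf4 (-0.88) and Ccr9 (-0.69), and they carry the gap in the mean level. That mean lay between 4.66 and 4.78 in threat arrays and between 5.30 and 5.44 in control arrays. Siglech, Pacsin1, Cox6a2, Klk1 and Bst2 were not called. Siglech averaged 4.25 ± 0.074 in threat animals and 4.36 ± 0.20 in control pools (SD, n = 6 and 3). It was called lower only without pool 5-6 (-0.23, adjusted p = 0.012, limma).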

How the data were processed

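Expression in 6 HighThreat animals and 3 LowThreat pools was taken from the deposited table of log2 values, which the authors produced by RMA according to the submitters' processing notes. The version is not given in the sources used here, and the log base was read from the values (0.607 to 13.567). The array medians lay between 3.19 and 3.22, and no arrays were identical. RMA gives no detection call, and normalization between arrays hides changes in total RNA per cell. The number of arrays limits the precision. No batch is named.

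Of 45101 probe sets, 64 are controls. The platform's symbols were updated through Entrez numbers to RefSeq (GRCm38.p6). Each gene was read from the brightest probe set that names it alone (members: alone or with others), over all 9 arrays, and tested if that mean reached the 40th percentile, 2.66. HighThreat minus LowThreat was fitted with limma 3.58.1 in R 4.3.3, two-sided, with Benjamini-Hochberg adjustment over 13080 genes. SE is limma's moderated standard error. The steps were tested on simulated data.

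The members and lists were chosen with earlier results of these data known. Values by array are given, per role, for the gene with the smallest p and the brightest, and group means for uncalled genes. Outside the list, Stat2, Irf9, Irf1, Irf7, Ifnar1, Ifngr1, Itgam, Siglech and the gene with the smallest p of each pathway list are named; Ifnar2, Ifngr2, Jak1, Ifnb1 and Ifng were chosen after their values were seen. Alternatives changed the probe set rule, filter, normalization, variance model, weights and arrays. Array numbers did not pair the groups: deviations of pools and same-numbered threat animals correlated at 0.149, -0.152 and -0.029. P-values treat pools and single animals alike.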

Additional observations from a re-analysis of the deposited data

Results flagged for a closer look

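Among the 6 threat animals, 59 values were searched for an animal far from the others (42 genes of the list and 17 means of gene sets), and 1 was found, where chance alone marks about 1 in 20. In Adar, threat animal 1 was lowest at 7.08, against 7.17 for the nearest other animal, and this gap took 0.63 of the range of the group. The gene was not called, and its difference stayed between 0.02 and 0.08 in all 22 alternatives.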

How the results depend on the processing

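Of 31 called genes of the list, 28 kept direction and call in every alternative that gave a value, 22 at most; the exceptions were Irgm1, Iigp1 and Ifi47, for which the cause was not tested. Leaving out 1 array gave 27 to 28 members called higher and 1 to 5 called lower, 26 to 27 effectors called higher and 0 to 2 called lower, and 1 to 4 GTPases called lower; threat values lay below all pools in 2 to 5 members. Ifi47 was not called without pool 1-2 (adjusted p = 0.133, limma) or pool 3-4 (0.14), nor in 5 other alternatives (0.053 to 0.0682), Iigp1 not without pool 5-6 (0.142) nor in 5 others (0.0509 to 0.0851), and Irgm1 not without pool 1-2 (0.0529) or pool 3-4 (0.0853). The GTPase median was -0.06 with probe sets naming a member alone (Tgtp1 left out), and with _at probe sets preferred or the 60th percentile filter (Iigp1 left out). Averaging probe sets gave 2 GTPases called higher, Gbp7 being added, and arrayWeights gave 2 effectors called lower, Bst2 and Ifi27l2a. With probe sets naming the member alone, 1 member had all threat values below. Ifi35, uncalled throughout, changed sign to -0.005 with _at probe sets, -0.026 after quantile normalization, -0.014 with arrayWeights, and ran from -0.032 to 0.022 without 1 array, below 0 without pool 5-6, threat animal 3 or threat animal 6. Stat2 changed to 0.026 with arrayWeights and ran from -0.133 to 0.06 without 1 array, above 0 without pool 5-6.

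For the pathway lists, averaging probe sets gave 1 receptor and JAK-STAT gene lower, 1 regulatory factor higher, 2 sensing genes lower and 0 inhibitors lower. Regulatory factors called higher were 1, and not 2, with _at probe sets, every probe set fitted on its own, no filter, arrayWeights and number pairs. Inhibitors called lower were 0, and not 1, with _at probe sets, single probe sets, no filter and number pairs. No filter gave 1 ligand called lower, from those otherwise below the filter. Among these Ifng had the largest fall, on dim values of 1.78 in threat animals and 2.64 in control pools. The 60th percentile gave 2 sensing genes lower. Without 1 array, ligands called higher were 0 to 1, regulatory factors 1 to 2 higher and 1 to 2 lower, sensing genes 1 to 2 lower and inhibitors 0 to 1 lower. With the replicate block, 27 members were called higher and 4 lower, and regulatory factors called higher were 1. Over all genes, calls ranged from 33.3% with no filter to 57.1% at the 60th percentile.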
